A study of Mus musculus with 8 samples.

Results

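The tumour suppressor p53 and 9 genes known as its transcriptional targets were followed in mouse gastrocnemius (GAS) muscle after knockdown of *Mytho*. The genes were *Trp53*, which encodes p53, and *Cdkn1a*, *Mdm2*, *Ccng1*, *Trp53inp1*, *Trp53i11*, *Bax*, *Bbc3*, *Sesn1* and *Zmat3*. They were taken by gene symbol, and each of the 10 had 1 probe set (the group of short probes that measures 1 gene) among the 22206 on the array, which name 22664 gene symbols in all. Where a gene had several, the one with the highest mean signal was to be kept, but no choice was needed here. All muscles came from male C57/Bl6j mice, injected with adeno-associated virus (AAV) at about 10 weeks of age and labelled as 14 weeks old, with muscle taken 3 weeks after the injection. In the MYTHO group (n = 4), the injected virus expressed an sh-RNA, a short hairpin that lowers the *Mytho* transcript, under the U6 promoter, which is active in all cell types. In the scrmb group (n = 4), it expressed a scrambled hairpin under the same promoter and was given in the opposite leg. Both groups therefore received virus, and neither shows muscle without it. The columns carry a number that occurs once in each group, taken here as the animal, and the animals are called A to D.

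p53 is a transcription factor that is held low in unstressed cells by MDM2, a ubiquitin ligase that marks it for degradation. DNA damage and other stresses free p53 from MDM2, so its activity changes largely through the protein and often without a change in *Trp53* mRNA. Its targets stop the cell cycle, start apoptosis or change metabolism, and in muscle *Cdkn1a* is also known to respond to denervation, fasting and disuse.

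Signals are given as log2 values, so a difference of 1 is a 2-fold change, and differences are MYTHO minus scrmb throughout. Median signals of the 8 arrays lay between 6.39 and 6.47, and correlations between arrays of one group ran from 0.981 to 0.986 over probe sets. The targeted gene, listed as D230025D16Rik, fell from 11.12 ± 0.26 (SD, n = 4) to 8.31 ± 0.33 (SD, n = 4), which left 14.2% of the scrmb signal (limma adjusted p = 0.00044). All 8 muscle-fibre markers, among them *Acta1* and *Ckm*, had a mean signal at or above the 99.6th percentile of the array, so the arrays carry the labelled tissue. Slow-fibre markers were higher in the MYTHO leg, though none reached an adjusted p under 0.05. The mean of 8 slow-fibre markers was, in the order A to D, 13.74, 12.08, 12.02 and 11.67 in scrmb and 14.88, 14.54, 14.74 and 11.76 in MYTHO muscle. Whole muscle was measured, so a change in the RNA of each cell and a change in the share of cells that carry it cannot be told apart.

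RefSeq promoter windows, from 250 bases before to 50 bases after a start site on GRCm38.p6, were matched to 8 of the 10 genes by symbol and gave 12 windows. *Trp53inp1* and *Zmat3* had no entry. The windows were searched for the p53 half-site, the consensus of 10 bases that 1 pair of p53 subunits binds and that reads the same on both strands. A half-site was found in 6 of the 12 windows, at *Trp53*, *Cdkn1a*, *Mdm2*, *Ccng1*, *Bax* and *Sesn1*, against 8.36% of all 32851 windows in the table. Pairs of adjoining half-sites with at most 1 of 20 letters off the consensus, which contain the half-sites just counted, were held by 2 of the 12 windows, at *Cdkn1a* and *Ccng1*, and by 0.0883% of all windows. These are matches of letters, and no binding was measured. The windows of *Cdkn1a* and *Ccng1* are shown because they hold such pairs. The *Mdm2* window is shown for its single half-site, a match held by 8.36% of all windows. All of these genes are known to be induced directly by p53, but whether it acts through the matches shown was not measured. The window of *Trp53i11* is shown because this gene differed most. Half-sites are in capitals and all 4 sequences read 5′ to 3′ on the gene's strand.
Cdkn1a, upstream start, chr17:29090729-29091028 (+): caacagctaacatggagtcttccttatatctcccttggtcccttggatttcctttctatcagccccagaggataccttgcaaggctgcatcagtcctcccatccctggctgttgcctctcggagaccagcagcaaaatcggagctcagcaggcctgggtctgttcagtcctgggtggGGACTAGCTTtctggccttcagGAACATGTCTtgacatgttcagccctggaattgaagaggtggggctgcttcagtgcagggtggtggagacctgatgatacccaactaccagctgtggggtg
Ccng1, chr11:40755237-40755536 (-): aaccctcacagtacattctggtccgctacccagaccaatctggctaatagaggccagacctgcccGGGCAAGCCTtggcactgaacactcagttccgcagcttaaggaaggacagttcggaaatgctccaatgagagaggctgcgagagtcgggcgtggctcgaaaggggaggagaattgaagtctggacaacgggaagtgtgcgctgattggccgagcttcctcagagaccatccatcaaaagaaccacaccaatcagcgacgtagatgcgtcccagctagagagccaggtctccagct
Mdm2, chr10:117710709-117711008 (-): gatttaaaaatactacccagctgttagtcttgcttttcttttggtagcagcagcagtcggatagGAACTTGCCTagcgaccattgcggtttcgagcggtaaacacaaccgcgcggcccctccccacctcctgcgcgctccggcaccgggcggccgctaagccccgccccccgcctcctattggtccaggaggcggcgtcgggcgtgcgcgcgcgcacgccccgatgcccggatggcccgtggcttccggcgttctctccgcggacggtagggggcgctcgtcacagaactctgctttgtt
Trp53i11, chr2:93187298-93187597 (+): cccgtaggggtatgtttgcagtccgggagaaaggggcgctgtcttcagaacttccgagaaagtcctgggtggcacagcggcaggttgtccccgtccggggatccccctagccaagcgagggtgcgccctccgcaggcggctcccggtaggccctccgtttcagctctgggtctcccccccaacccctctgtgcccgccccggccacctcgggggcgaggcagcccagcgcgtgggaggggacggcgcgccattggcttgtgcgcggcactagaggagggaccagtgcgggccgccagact
In the *Cdkn1a* window, which belongs to a start 2790 bases upstream of the second one in the table, GAACATGTCT begins 51 bases before the start and is followed without a gap by a second half-site with 1 letter off. In the *Ccng1* window, GGGCAAGCCT begins 185 bases before the start and is the second member of such a pair. The *Mdm2* window holds GAACTTGCCT, 186 bases before the start, with no second half-site. The windows of *Trp53i11* and of *Bbc3* hold no half-site.

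The *Trp53* transcript was not measurably different between the groups, and its targets did not move in one direction. None of the 10 genes passed limma at an adjusted p under 0.05, a threshold passed by 0.00901% of probe sets as higher and 0.018% as lower. Without a block, *Trp53i11* was the only one with an unadjusted p under 0.05, and the only one past the threshold of at least a 2-fold change with such a p, which 0.261% of all probe sets passed as higher and 1.25% as lower. At an unadjusted p under 0.05 alone, 1 of 10 was higher, against 4.81% of all probe sets, and 0 of 10 were lower, against 7.58%. With a replicate block by animal, which compares the legs within each animal, 2 of 10 were higher, *Cdkn1a* and *Trp53i11*, against 4.94% of all probe sets in that fit, and 0 of 10 were lower, against 7.66%. The median log2 fold change of the 10 genes was 0.20, against -0.005 over all probe sets, with 6 above 0, against 49.3% of all probe sets, and 4 below, against 50.7%. *Cdkn1a*, *Trp53i11*, *Trp53inp1* and *Bbc3* were higher in the MYTHO leg of all 4 animals, as were 8.94% of all probe sets. *Sesn1* was lower in all 4, as were 10.8%. For none of the 10 genes were the 2 groups free of overlap, as 2.59% of all probe sets were with MYTHO higher and 3.87% with MYTHO lower. The symbols were chosen by name with the differences between these same arrays already in view, and the only measured value the rule selected on was the mean signal. Values and p of the 10 genes are therefore a description, and their counts are no independent evidence of a direction.

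**Figure D1:**
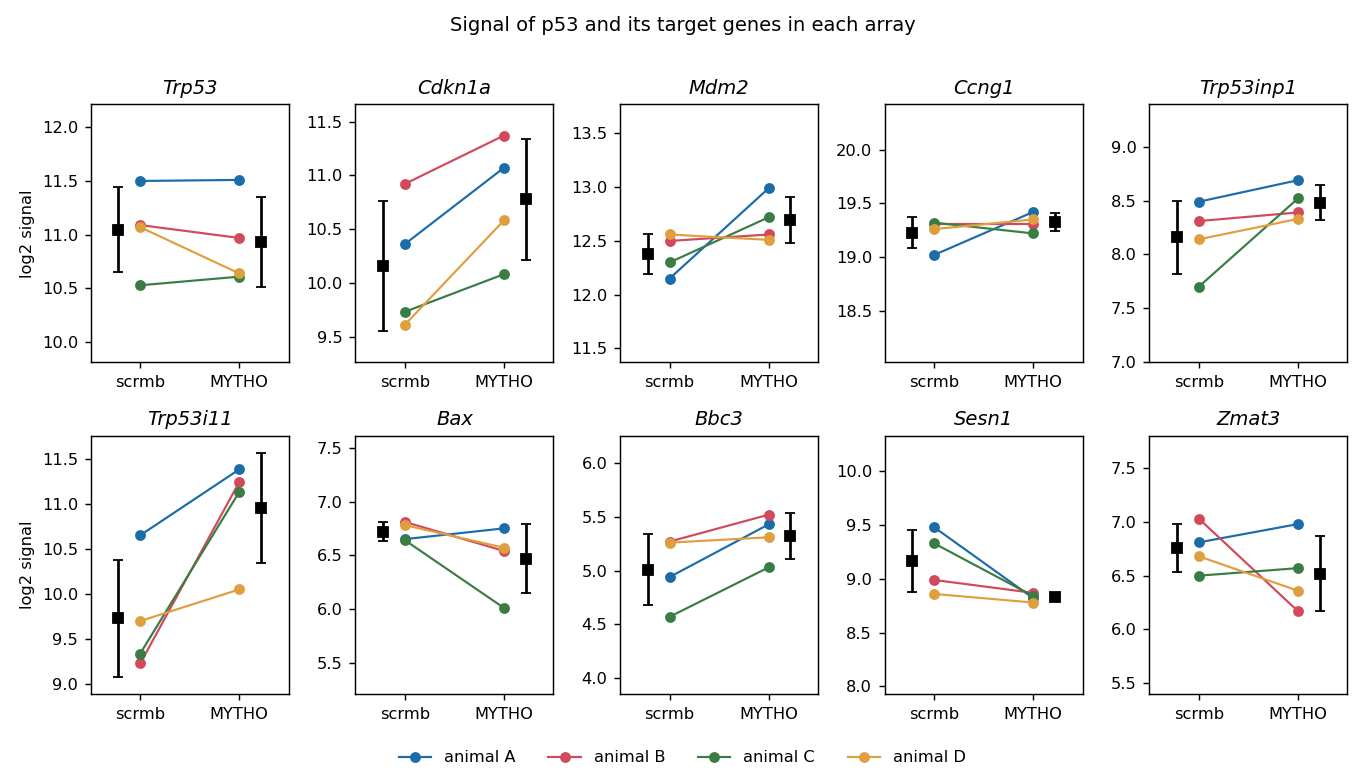
Log2 signal of each gene in the scrmb and MYTHO muscle of animals A to D, with lines joining the legs of one animal and squares for the group mean ± SD (n = 4); panels have their own ranges. *Cdkn1a* and *Trp53i11* were higher in the MYTHO leg of every animal, while *Trp53* lay between 10.53 and 11.51 in both groups.

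For *Trp53*, the log2 signal in the order A to D was 11.50, 11.09, 10.53 and 11.07 in scrmb and 11.51, 10.97, 10.61 and 10.64 in MYTHO muscle. All other genes are given in the same order. Animal A was highest in both legs, and the legs of animals A, B and C differed by 0.12 or less. The difference was -0.12, with a 95% interval from -0.67 to 0.44 (limma adjusted p = 0.896), so changes of up to about these sizes are not excluded at this number of arrays. Its sign turned to 0.04 without the scrmb array of animal A.

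*Mdm2*, the ligase that degrades p53 and is itself a p53 target, had signals of 12.15, 12.50, 12.30 and 12.56 in scrmb and 12.99, 12.56, 12.72 and 12.51 in MYTHO muscle. The legs of animals A and C differed by 0.84 and 0.42, while those of B and D differed by less than 0.1. The mean difference was 0.32, with an interval from -0.08 to 0.72 and a limma adjusted p of 0.517. *Ccng1* encodes cyclin G1, which recruits a phosphatase to MDM2 and so takes part in the same feedback. Its signals were 19.02, 19.31, 19.32 and 19.26 in scrmb and 19.42, 19.31, 19.22 and 19.35 in MYTHO muscle, close below the ceiling of 19.93 that a probe set can reach on these arrays. The groups overlapped, and the difference of 0.10 (limma adjusted p = 0.861) became -0.05 after quantile normalization and 0.03 without scrmb A.

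A list of 23 other regulators of p53 held genes such as *Mdm4*, *Atm* and *Chek2*. At an unadjusted p under 0.05, 0 were higher, against 4.81% of all probe sets. At that p, 1 was lower, which is 4.35% of them against 7.58% of all probe sets. The median log2 fold change was -0.04. The 1 gene was *Rchy1*, a ubiquitin ligase that also targets p53, at 11.87, 11.81, 12.17 and 11.42 in scrmb and 11.54, 11.36, 11.00 and 11.44 in MYTHO muscle. It was lower in animals A, B and C and level in D, with a log2 fold change of -0.48 (limma adjusted p = 0.368). With the replicate block by animal its unadjusted p was 0.061, no longer under 0.05. *Mdm4*, which binds p53 beside MDM2 differed by -0.04 with an interval from -0.63 to 0.55, and it ran from -0.29 to 0.18 as single arrays were left out.

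*Cdkn1a* encodes p21, an inhibitor of cyclin-dependent kinases and the best-known p53 target in cell cycle arrest. Its signal was 10.36, 10.92, 9.73 and 9.61 in scrmb and 11.07, 11.37, 10.08 and 10.58 in MYTHO muscle. The MYTHO leg was higher in each animal, by 0.71, 0.45, 0.35 and 0.97, yet the groups overlapped because animals A and B were above C and D in both legs. Scrmb muscle averaged 10.15 ± 0.61 (SD, n = 4) and MYTHO muscle 10.78 ± 0.57 (SD, n = 4). The log2 fold change of 0.62 had a standard error of 0.33, an interval from -0.10 to 1.34, an unadjusted p of 0.0868 and a limma adjusted p of 0.484. With the replicate block by animal, the standard error was 0.19 and the unadjusted p was 0.0100. The limma adjusted p was then 0.248. Without scrmb B or without MYTHO C the unadjusted p was also under 0.05, at 0.0183 and 0.0250, and the log2 fold change ran from 0.42 to 0.88 over the fits that left out 1 array.

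The 6 other CDK inhibitors of the CIP/KIP and INK4 families did not share a direction. Of these, 4 were above 0 and 2 below, with a median log2 fold change of 0.07. At an unadjusted p under 0.05, 1 was higher and 1 lower, each 16.7% of the list, against 4.81% and 7.58% of all probe sets. For 1 of the 6, not *Cdkn2c*, every MYTHO value lay below every scrmb value, as for 3.87% of all probe sets. *Cdkn2d* was higher by 0.48 and *Cdkn2c* lower by 0.44 on the log2 scale, with limma adjusted p of 0.385 and 0.394. *Cdkn2d* was higher in 4 of 4 animals and *Cdkn2c* lower in 3 of 4. Their unadjusted p, 0.0428 and 0.0473, became 0.0575 and 0.0664 with the replicate block. Without scrmb B, the lowest array, the *Cdkn2d* difference was 0.30 with an unadjusted p of 0.149. Genes of the dividing cell that p53 and p21 are known to repress, such as *Mki67*, *Top2a* and *Ccnb1*, gave no gene of 20 past an unadjusted p of 0.05, against 4.81% of all probe sets as higher and 7.58% as lower. Of these 20 genes, 19 had a mean signal below the median of the array, and no call of detection is given for them. Their median log2 fold change was -0.01, and single genes ran from -0.64 to 0.38.

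*Trp53i11*, named for its induction by p53, showed the largest difference of the 10 genes. The gene spans chr2:93187349-93201757 (GRCm38.p6). The signal was 10.65, 9.23, 9.34 and 9.70 in scrmb and 11.38, 11.24, 11.13 and 10.05 in MYTHO muscle. Only the MYTHO muscle of animal D lay within the scrmb range, below scrmb A. Scrmb muscle averaged 9.73 ± 0.65 (SD, n = 4) and MYTHO muscle 10.95 ± 0.61 (SD, n = 4). This is a 2.33-fold higher signal, with a log2 fold change of 1.22, an interval from 0.46 to 1.98, an unadjusted p of 0.00458 and a limma adjusted p of 0.200. The unadjusted p stayed under 0.05 in all 17 alternative fits, from 0.000451 to 0.0167, and the limma adjusted p stayed above 0.05 in all of them, from 0.114 to 0.430.

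The size of the *Trp53i11* difference varied between animals along with the slow-fibre markers. It was 0.73, 2.01, 1.79 and 0.35 in animals A to D, where the mean of the 8 slow-fibre markers differed by 1.15, 2.46, 2.73 and 0.09. Animals B and C had the larger differences in both, and animal D the smallest. Of the 8 slow-fibre markers, 7 were at least 2-fold higher with an unadjusted p under 0.05, as were 0.261% of all probe sets. The median log2 fold change was 1.46, and the log2 of their summed signal ran from 15.69 to 17.74 in scrmb and from 16.05 to 18.65 in MYTHO muscle. The part of slow fibres in the *Trp53i11* difference was not tested. The *Cdkn1a* difference did not follow this order, being largest in animal D.

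**Figure D2:**
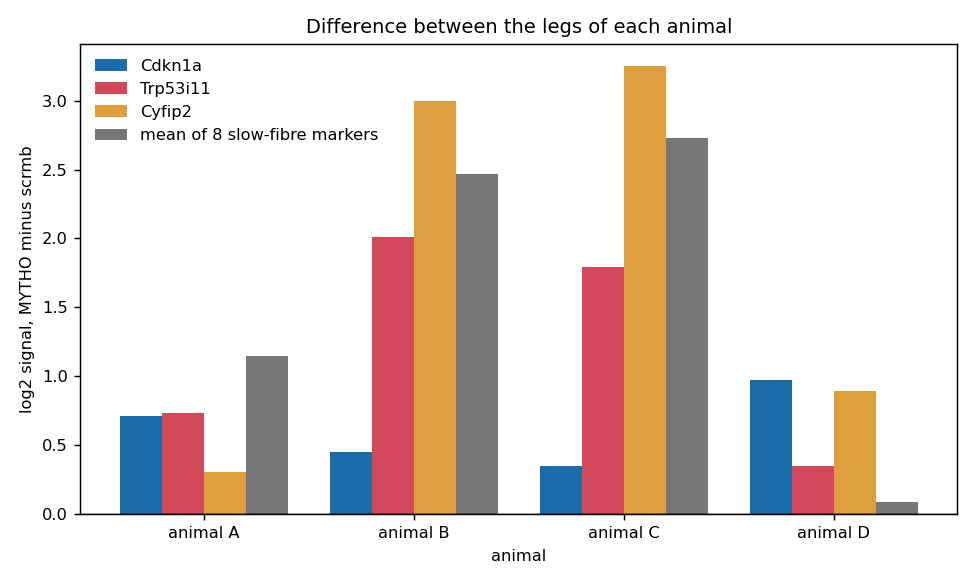
Difference in log2 signal between the MYTHO and scrmb legs (vertical axis) in animals A to D for *Cdkn1a*, *Trp53i11*, *Cyfip2* and the mean of 8 slow-fibre markers. *Trp53i11*, *Cyfip2* and the slow-fibre mean were largest in animals B and C, and *Cdkn1a* was largest in animal D at 0.97.

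*Trp53inp1* encodes a stress-induced nuclear protein that strengthens p53 activity and also takes part in autophagy. Its signals were 8.49, 8.31, 7.70 and 8.14 in scrmb and 8.69, 8.39, 8.52 and 8.33 in MYTHO muscle. The MYTHO leg was higher by 0.20, 0.08, 0.82 and 0.19, so animal C supplied most of the mean difference of 0.32. The interval ran from -0.12 to 0.76, with a limma adjusted p of 0.558. Without the scrmb array of animal C, the difference was 0.17.

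The mean differences of the apoptosis genes had opposite signs, but each interval, from the fit without a block, spanned both signs. *Bax*, whose protein opens pores in the outer mitochondrial membrane, was 6.65, 6.81, 6.64 and 6.78 in scrmb and 6.75, 6.54, 6.01 and 6.57 in MYTHO muscle. The scrmb values were tight, with a range of 0.17, against 0.74 in MYTHO muscle. MYTHO muscles B, C and D lay below every scrmb value, with C the lowest, and MYTHO muscle A lay within the scrmb range. The difference was -0.25 with an interval from -0.67 to 0.17, and it was -0.10 without MYTHO C. *Bbc3* encodes PUMA, a BH3-only protein that activates BAX. Its signals were 4.94, 5.27, 4.57 and 5.26 in scrmb and 5.43, 5.52, 5.03 and 5.31 in MYTHO muscle, and the file gives no call of detection for such low values. All 4 legs with MYTHO virus were higher than their pair, by 0.05 to 0.49, with a mean difference of 0.31 and an interval from -0.14 to 0.76. It was 0.17 without scrmb C. The limma adjusted p was 0.648 for *Bax* and 0.584 for *Bbc3*.

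Of 14 other BCL2 family genes, 1 was higher and 1 lower at an unadjusted p under 0.05, each 7.14% of the list against 4.81% and 7.58% of all probe sets. The higher one was *Bcl2*, the founding survival gene of the family, at 7.04, 7.08, 6.50 and 6.76 in scrmb and 6.96, 8.06, 7.66 and 7.21 in MYTHO muscle. Its difference was 0.63 (limma adjusted p = 0.335), and it was higher in 3 of 4 animals. Without MYTHO B the *Bcl2* difference was 0.43 with an unadjusted p of 0.0917. The lower one was a probe set that names both *Bcl2a1b* and *Bcl2a1a*, survival genes of blood cells, at -0.85 (limma adjusted p = 0.304). Its differences by animal were -1.01, -2.18, -0.37 and 0.16. Without MYTHO B it was -0.57 with an unadjusted p of 0.0634, so neither call of the list held in that fit. The median over the list was 0.02.

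*Sesn1* encodes sestrin 1, a stress-induced protein that restrains mTORC1. It was 9.48, 8.99, 9.33 and 8.86 in scrmb and 8.82, 8.87, 8.84 and 8.78 in MYTHO muscle. The MYTHO values were all within 0.1 of each other, and the groups overlapped only in that MYTHO B lay just above scrmb D. The differences by animal were -0.66, -0.12, -0.49 and -0.08. The mean difference was -0.34, with an interval from -0.74 to 0.07, an unadjusted p of 0.0927 and a limma adjusted p of 0.494. Without the scrmb array of animal D, the unadjusted p was 0.0418. *Zmat3*, an RNA-binding zinc finger protein, was 6.81, 7.03, 6.50 and 6.68 in scrmb and 6.98, 6.17, 6.57 and 6.36 in MYTHO muscle. It was higher in animals A and C and lower in B and D, with a mean difference of -0.24 (limma adjusted p = 0.708). It was -0.12 without MYTHO B, -0.14 without scrmb B and -0.39 without MYTHO A.

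**Figure D3:**
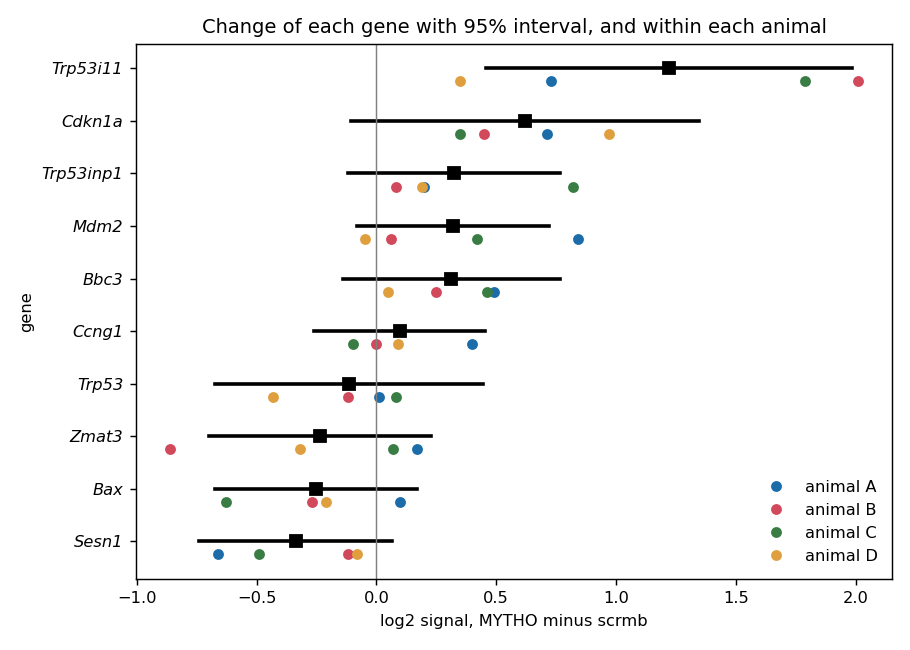
Difference in log2 signal, MYTHO minus scrmb (horizontal axis), for each gene: the square is the mean, the bar its 95% interval from limma without a block, and the points are animals A to D. The interval excluded 0 only for *Trp53i11*, from 0.46 to 1.98.

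A wider list of known p53 targets, 47 of 48 of them measured, gave 3 higher genes (6.38%) and 1 lower gene (2.13%) at an unadjusted p under 0.05, against 4.81% and 7.58% of all probe sets. None had an adjusted p under 0.05. The median log2 fold change was 0.12. In all 4 animals, 21.3% were higher, against 8.94% of all probe sets, and 6.38% were lower, against 10.8%. This list too was chosen with earlier results of these data known. Its shares are therefore a description and no independent evidence of a direction. *Cyfip2*, which links actin regulation to the p53 response, was 7.76, 6.47, 5.13 and 6.35 in scrmb and 8.06, 9.47, 8.38 and 7.24 in MYTHO muscle. MYTHO muscle D again lay within the scrmb range. Its log2 fold change was 1.86, with an interval from 0.71 to 3.01 and a limma adjusted p of 0.192. Its differences by animal, 0.30, 3.00, 3.25 and 0.89, were largest in B and C, like those of *Trp53i11* and the slow-fibre markers.

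*Tnfrsf10b*, a death receptor, was 4.61, 5.22, 5.42 and 5.30 in scrmb and 5.76, 6.06, 5.64 and 5.57 in MYTHO muscle. The groups were free of overlap, as were 2.59% of all probe sets with MYTHO higher. Its mean signal lay at the 32.0th percentile of the array, and no call of detection is given. Its log2 fold change was 0.62 (limma adjusted p = 0.270), and 0.44 without scrmb A. *Ddit4*, an inhibitor of mTORC1, had low signals, 4.52, 3.97, 4.39 and 4.69 in scrmb and 4.91, 5.20, 4.49 and 4.95 in MYTHO muscle, again with no call of detection. It differed by 0.50 (limma adjusted p = 0.378) and was higher in 4 of 4 animals, with an unadjusted p of 0.0402 that became 0.0564 with the replicate block and 0.131 without scrmb B, where the difference was 0.35. *Cd82*, a tetraspanin of the cell surface, differed by -0.47 (limma adjusted p = 0.336) and was lower in 3 of 4. Its unadjusted p of 0.0278 became 0.0803 without MYTHO B, where the difference was -0.37. It was also above 0.05 without scrmb C, scrmb D or MYTHO C. *Eda2r*, a receptor of ectodysplasin, had the lowest value of the list at -0.87 with an interval from -1.87 to 0.13. It was lower by 2.61 and 1.72 in animals B and C but higher by 0.56 and 0.29 in A and D, and was picked out after its values were seen.

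**Figure D4:**
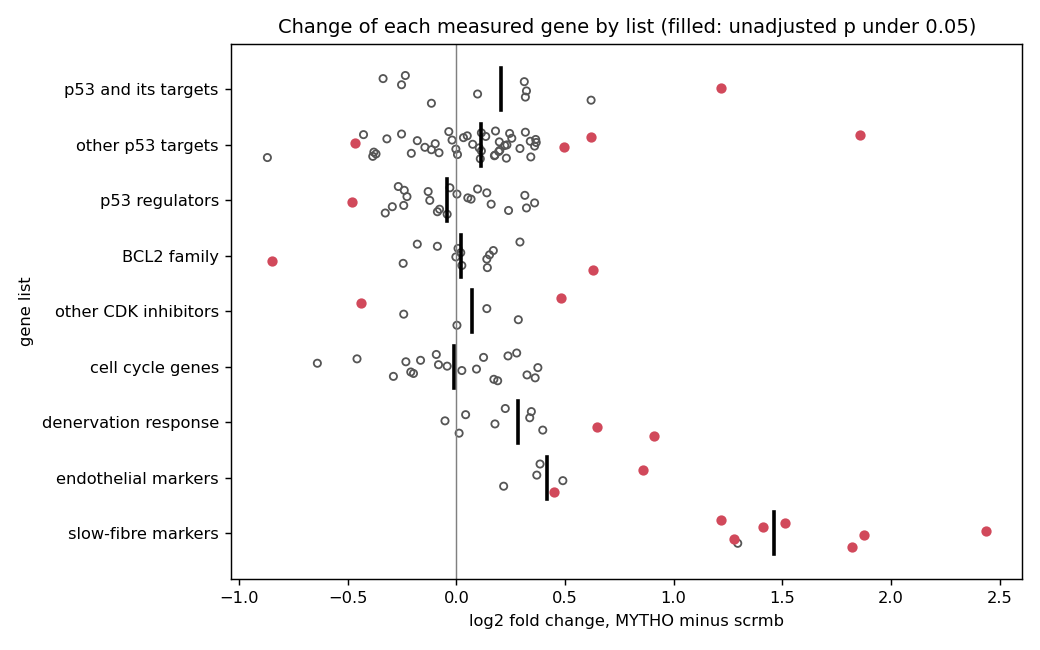
Log2 fold change, MYTHO minus scrmb (horizontal axis), of each measured gene in 9 lists, with a bar at the list's median and filled points at an unadjusted p under 0.05. Most genes of the p53 lists lay between -0.5 and 0.5, while the slow-fibre markers had a median of 1.46.

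Since *Cdkn1a* is also a denervation gene, the genes that respond to loss of nerve contact were read beside it. Of 10, 9 were above 0 (90%, against 49.3% of all probe sets) and 2 were higher at an unadjusted p under 0.05 (20% against 4.81%), with a median log2 fold change of 0.28. The list mean differed by 0.69, 0.30, 0.14 and 0.08 in animals A to D, least in animal D, where *Cdkn1a* differed most. The part of denervation in the *Cdkn1a* values was not tested. *Chrna1*, the alpha subunit of the acetylcholine receptor, was 6.57, 6.20, 6.59 and 6.30 in scrmb and 7.57, 7.55, 7.37 and 6.80 in MYTHO muscle. The groups did not overlap, as for 2.59% of all probe sets with MYTHO higher. The log2 fold change was 0.91 (limma adjusted p = 0.127). *Myog*, a transcription factor of muscle differentiation, differed by 0.65 and was higher in 4 of 4 animals (limma adjusted p = 0.307). *Gadd45a*, which is both a p53 target and a denervation gene, differed by 0.18 with an interval from -0.24 to 0.59.

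Other cells in the muscle could carry p53 targets too. Of 6 endothelial markers, all 6 were above 0, against 49.3% of all probe sets, and 2 were higher at an unadjusted p under 0.05 (33.3% against 4.81%). The median log2 fold change was 0.42, and the list mean ran from 9.77 to 10.29 in scrmb and from 10.44 to 10.60 in MYTHO muscle. At that p, 1 of 7 satellite cell markers was higher (14.3% against 4.81% of all probe sets) and 1 of 6 fibroblast markers lower (16.7% against 7.58%). No macrophage, T cell, Schwann cell, blood or adipocyte marker passed it. All 6 Schwann cell markers were below 0, against 50.7% of all probe sets, with a median of -0.37. Their list mean differed by -0.34, -0.21, -1.13 and 0.11 in animals A to D, so animal C had the largest difference and D the opposite sign. The adipocyte list mean ran from 5.45 to 9.20 in scrmb and from 5.72 to 10.69 in MYTHO muscle, with differences of 3.12, -2.84, -1.30 and 0.56 in animals A to D. The list mean of the macrophage markers was 7.09 to 7.42 in scrmb and 7.10 to 7.39 in MYTHO muscle. The part of these cells in the values of the p53 targets was not tested.

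The probe sets most like *Cdkn1a* over the 8 arrays, once each group's mean was taken off, were those of *Cnbd1*, Gm1979 and *Rpl27*, with Pearson correlations of 0.982, 0.971 and 0.966. The 8 arrays come from 4 animals and were picked over all probe sets, so these values are only a description. Their log2 fold changes were 0.08, -0.86 and 0.20, so probe sets alike in their spread between arrays had unlike differences between legs. *Cnbd1* had low signals, from 3.76 to 5.01 over the 8 arrays, again with no call of detection.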

How the data were processed

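Total RNA of 8 GAS muscles was hybridised to Clariom S Mouse arrays. The authors deposited log2 signals per gene-level probe set, made with Transcriptome Analysis Console 4.0.1 under default parameters and, per the file headers, with SST-RMA and annotation release 36 on mm10. SST-RMA corrects background, normalizes quantiles over arrays and summarises probes, so differences are relative to the other probe sets. The table also holds the authors' group means, fold changes and p-values, which were not used. Columns were tied to groups by name, but not to the replicate numbers of the labels. The number in the column names was taken as the animal, since the study injected both legs of each mouse. Deviations from the group means correlated by -0.001 to 0.135 between same-numbered arrays and by -0.167 to 0.104 between others.

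Groups were compared with limma 3.58.1 in R 4.3.3 (lmFit and eBayes, two-sided, no block), with Benjamini-Hochberg adjustment over all 22206 probe sets, and the code was tested on simulated data. Intervals are 95% intervals of that fit, and 4 arrays per group limit the precision. The study's threshold was a 2-fold change with p under 0.05. Replicates are separate muscles. Named genes were the 10 members, the targeted gene, up to 6 genes of each pathway list with the smallest unadjusted p under 0.05, and the 3 probe sets most like *Cdkn1a*. *Mdm4*, *Gadd45a* and *Eda2r* fall outside that rule and were picked after their values were seen. Members and lists were chosen with earlier results of these data known. *Pvt1* and *Trac* of the lists were not matched. Alternatives were quantile normalization, median centring, keeping the upper 75% or 50% of probe sets, trend and robust eBayes, array weights, no saturated probe sets, a fixed or random block on animal, and leaving out each array. No other probe set of a member existed to try.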

Additional observations from a re-analysis of the deposited data

Results flagged for a closer look

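The 10 p53 genes, the targeted gene, the 11 pathway genes with an unadjusted p under 0.05, the mean of the 10 p53 genes and the mean of the slow-fibre markers were screened for a lone array, in 48 sets of 4 values. In 3 of these sets, the gap to the nearest other array passed Dixon's critical value as a share of the range, and chance gives about 1 in 20. The D230025D16Rik signal of MYTHO muscle C was 8.80 against 8.08 to 8.20 in the others. The *Cdkn2d* signal of scrmb muscle B was 6.10 against 6.78 to 6.90, where the difference within animal B was 1.16. The slow-fibre list mean of MYTHO muscle D was 11.7563 against 14.54 to 14.88, the same muscle in which *Trp53i11* was lowest of the MYTHO group. The values of *Trp53*, *Cdkn1a* and the other 8 genes had no array set apart in this way.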

How the results depend on the processing

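With the replicate block by animal, members with an unadjusted p under 0.05 numbered 2 higher in place of 1, pathway genes lower at that p numbered 2 in place of 4 (without *Rchy1* and *Cdkn2c*), *Ddit4* and *Cdkn2d* were no longer under it, and the block changed no other call of the 10 genes. The adjusted calls over all probe sets, 2 higher and 4 lower, became 1 and 1 with that block and 4 and 30 with a random one. They were 30 and 130 under robust eBayes with a trend, 5 and 39 when arrays were centred on their medians, 5 and 55 once saturated probe sets were left out, 1 and 2 when each symbol had a single probe set, and 8 and 77 with the limit at 0.1. None of the 10 genes passed an adjusted p of 0.05 in the fits with values for single genes, which leave out the one with a single probe set per symbol. The counts of 58 and 277 at 2-fold became 546 and 1107 at 1.5-fold. The pathway genes counted here are the 117 of the 6 pathway lists. Those higher at an unadjusted p under 0.05 numbered 11 in place of 7 after quantile normalization. At that p, 4.81% of all probe sets were higher and 7.58% lower in the main fit. Higher p53 targets of the wider list numbered 1 in place of 3 in the upper 50% of probe sets. *Bbc3* was below that filter and had no value there. Trying other probe sets of the 10 genes gave no value, since none existed. The block used the animal number, because the columns carry no replicate number of the labels. *Ccng1* turned to -0.0506 after quantile normalization. The causes were not tested.

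Without single arrays, members ran from 1 to 2 higher (2 without scrmb B or MYTHO C) and from 0 to 1 lower (1, *Sesn1*, without scrmb D). *Trp53* ran from -0.307 to 0.0358. Other p53 targets ran from 2 to 5 higher (5 without MYTHO C) and 0 to 3 lower (3 without scrmb A), and pathway genes from 4 to 9 higher (4 without scrmb C or MYTHO B) and 2 to 5 lower (2 without scrmb B, C or D or MYTHO B). All probe sets ran from 34 higher without MYTHO B to 109 without scrmb A, and from 208 lower to 484 without scrmb D, at 2-fold, and from 0 to 14 and 1 to 140 after adjustment, where 14 and 140 came without scrmb D. Of 351 values of single genes, the 349 other than these 2 of *Ccng1* and *Trp53* kept their direction and their side of the adjusted threshold.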
